A study of Oryza sativa with 4 samples.

Results

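The sites described here are DAP-seq peaks of FD-related rice bZIP proteins with a centre within 2 Mb of fixed positions given for the centromeres of chromosomes 1, 2, 3, 5, 6, 7, 8, 11 and 12. The positions were 16.7, 13.6, 19.4, 12.4, 15.3, 12.1, 12.9, 12 and 11.9 Mb in that order. The 9 windows, each 4 Mb wide, held 1623 of 28323 OsBZIP42 peaks, 56 of 1107 OsBZIP69 peaks, 89 of 2059 OsBZIP77 peaks and 18 of 194 HALO-GST peaks. Over the 4 lists that is 1786 of 31683 peaks. The remaining peaks of the same chromosomes numbered 20871, 837, 1598 and 136 in the same order of lists. Chromosomes 4, 9 and 10 have no position in the rule and entered no comparison.

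DAP-seq captures fragmented genomic DNA on a transcription factor made outside the plant and sequences what is retained. The DNA came from leaves of the cultivar Nipponbare, and the HALO-tagged proteins OsBZIP42 (HBF1), OsBZIP69 (FD4) and OsBZIP77 (FD1) were made in rabbit reticulocyte lysate, per the labels. The HALO tag couples a protein covalently to beads, and HALO-GST, a fusion without the DNA-binding domain of a transcription factor, was the negative control. Each group held 1 library without replicates, so all differences below lie within libraries and have no replicate check.

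FD-type bZIPs dimerise through a leucine zipper, read DNA through a basic region and give florigen, the mobile signal that starts flowering, its contact with DNA. Many plant bZIPs recognise short elements with an ACGT core. Rice centromeres are built on satellite repeats and retrotransposons, and the regions beside them carry fewer genes and more transposable elements than the chromosome arms. DAP-seq uses DNA stripped of chromatin proteins such as histones.

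No source used here names the genome build, so the label of these regions could be set against the peaks alone. Sparse OsBZIP42 peaks are also the result reported below, so this is no independent check of the label. On all 9 chromosomes the 4 Mb stretch with the fewest OsBZIP42 peaks, searched in steps of 100 kb, overlapped the window. Its middle lay a median of 1.1 Mb and at most 1.6 Mb from the fixed position. On chromosome 2 it coincided with the window. The longest interval without an OsBZIP42 centre inside each window reached to within 0.5 Mb of the position on all 9 chromosomes. This interval was 595 kb on chromosome 11, from 11989776 to 12584754, and 453 kb on chromosome 1, from 16698884 to 17151673. On chromosomes 2 and 3 it measured 284 kb (13555136 to 13838965) and 202 kb (19203669 to 19405856). In these 4 cases it was the longest on its chromosome. The other intervals measured 228 kb on chromosome 8, 192 kb on chromosome 7, 176 kb on chromosome 12, 167 kb on chromosome 6 and 151 kb on chromosome 5. Longer peak-free intervals lay outside the window on chromosomes 5, 6, 7, 8 and 12, up to 496 kb on chromosome 8. Whether the positions mark functional centromeres in the build of the files was not tested.

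All 3 bZIP proteins had fewer peaks per Mb around these positions than on the rest of the same chromosomes. OsBZIP42 had 45.1 peaks per Mb in the windows (95% interval 42.9 to 47.3) and 81.8 on the rest (80.7 to 82.9). OsBZIP69 had 1.56 per Mb (1.18 to 2.02) in the windows and 3.28 (3.06 to 3.51) on the rest. OsBZIP77 had 2.47 per Mb (1.99 to 3.04) in the windows and 6.26 (5.96 to 6.58) on the rest. The window densities were thus 0.551 (0.524 to 0.580), 0.474 (0.355 to 0.622) and 0.395 (0.315 to 0.489) times those of the rest. These intervals are exact limits (Poisson for densities, binomial for ratios) that cover the counting of peaks only. Densities are per Mb of raw length. The part played by repeats, assembly gaps, DNA methylation and any multiply mapped reads left out was not tested. The windows made up 12.4% of the length of the 9 chromosomes and held 7.22% of the OsBZIP42 peaks, 6.27% of the OsBZIP69 peaks and 5.28% of the OsBZIP77 peaks.

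The difference was found on every chromosome. For OsBZIP42 the windows ran from 39.3 peaks per Mb on chromosome 5 to 57.3 on chromosome 6 with a median of 46.0, and the rest from 63.5 on chromosome 12 to 96.0 on chromosome 1 with a median of 79.3. The highest window was therefore below the lowest rest, and the counting intervals of window and rest were apart on all 9 chromosomes. The mean difference of window minus rest was -35.2 ± 13.5 peaks per Mb (SD, n = 9 chromosomes; exact sign-flip permutation test, two-sided, p = 0.00391, adjusted p = 0.0130). With 9 chromosomes 0.00391 is the smallest p this test can give, and p-values were adjusted over 10 comparisons. The units of the test are chromosomes of 1 library, and it says nothing of repeat libraries.

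The contrast between window and rest varied among chromosomes. Chromosome 3 had 39.8 OsBZIP42 peaks per Mb in its window and 92.3 on its rest, a ratio of 0.431. Chromosome 12 had 48.8 in its window and 63.5 on its rest, a ratio of 0.767. Chromosomes 6 and 11 had the next highest ratios, 0.722 and 0.700.

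OsBZIP69, the FD4 protein, had between 0.5 peaks per Mb in the window of chromosome 3, which held 2 peaks, and 2.50 in that of chromosome 5, which held 10. The window median was 1.50. On the rest of the chromosomes its density lay between 2.96 and 3.68 with a median of 3.36, so the ranges did not overlap. The mean difference was -1.73 ± 0.57 peaks per Mb (SD, n = 9; exact sign-flip permutation test, adjusted p = 0.0130). With so few peaks the counting intervals of window and rest were apart on 2 chromosomes, 1 and 3.

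OsBZIP77, the FD1 protein, had between 1 peak per Mb in the window of chromosome 3 and 3.50 in that of chromosome 5, with a median of 2.50. Its density on the rest lay between 5.56 and 7.31 with a median of 5.88, again without overlap. The mean difference was -3.73 ± 0.70 peaks per Mb (SD, n = 9; exact sign-flip permutation test, adjusted p = 0.0130). Its counting intervals were apart on 8 of the 9 chromosomes.

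The HALO-GST control did not pass the same test. It had 0.5 peaks per Mb (0.296 to 0.790) in the windows and 0.533 (0.447 to 0.631) on the rest. Its windows ran from 0, on chromosomes 3, 7 and 8, to 1.25, on chromosomes 1 and 6. The mean difference was -0.04 ± 0.54 peaks per Mb (SD, n = 9; exact sign-flip permutation test, p = 0.848, adjusted p = 0.848). This list is short and was called without a control, unlike the bZIP lists. Its window density was 0.938 times that of the rest, with an exact 95% interval of 0.540 to 1.54. This overlaps the intervals of the OsBZIP42 ratio (0.524 to 0.580) and the OsBZIP69 ratio (0.355 to 0.622). It lies above that of the OsBZIP77 ratio (0.315 to 0.489). No test of a protein against the control was made.

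**Figure D1:**
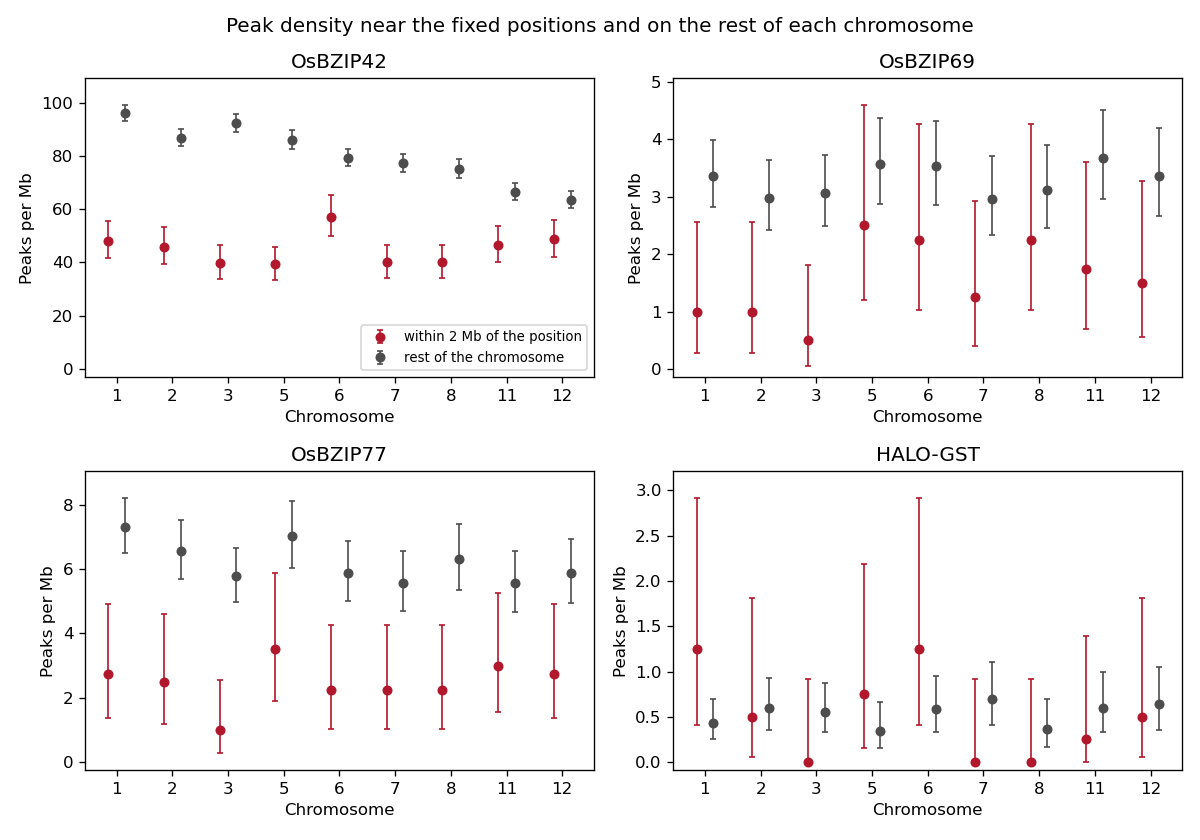
Peaks per Mb (vertical axes) on each of 9 chromosomes (horizontal axes) for 3 bZIP proteins and the HALO-GST control; red points are the windows within 2 Mb of the fixed position, grey points the rest of the chromosome, and bars are exact 95% Poisson intervals of the peak count. The red points lie below the grey ones on all 9 chromosomes for OsBZIP42, OsBZIP69 and OsBZIP77, and on 6 of 9 for HALO-GST.

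The lowest densities lay next to the fixed positions. Pooled over the 9 chromosomes in bins of 0.5 Mb, OsBZIP42 had 26.3 peaks per Mb (23.1 to 29.9) in the innermost bin, 43.1 (38.9 to 47.6) in the next and 58.9 (54.0 to 64.1) from 1 to 1.5 Mb. Density was then nearly level, at 52.0 (47.4 to 56.9) just inside the 2 Mb limit and 54.9 (50.2 to 59.9) just outside it. It reached 57.7 between 3.5 and 4 Mb, lay between 63.7 and 72.8 from 4 to 6 Mb, and stayed below the 81.8 of the whole rest. In the innermost 0.5 Mb to either side, OsBZIP42 had between 15 peaks on chromosome 8 and 40 on chromosome 2, with a median of 25. Set against the shell from 1 to 2 Mb, a comparison added after seeing the data, the inner 1 Mb had 34.7 OsBZIP42 peaks per Mb and the shell 55.4. The inner value was lower on 8 of 9 chromosomes, with an unadjusted p of 0.00781 that did not pass adjustment (exact sign-flip permutation test, adjusted p = 0.0781).

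The shorter lists had few peaks in these bins. OsBZIP69 had 6 peaks in the innermost bin, or 0.667 per Mb (0.245 to 1.45), then 13, 25 and 12 in the next bins out to 2 Mb. OsBZIP77 had 8 peaks, or 0.889 per Mb (0.384 to 1.75), then 27, 31 and 23. HALO-GST had 2, 5, 7 and 4. In the inner 1 Mb against the shell, OsBZIP69 was lower on 5 of 9 chromosomes and OsBZIP77 on 6 of 9, and neither passed (exact sign-flip permutation test, adjusted p = 0.625 for OsBZIP69 and 0.469 for OsBZIP77). On chromosomes 1, 3 and 6 neither protein had a peak within 0.5 Mb of the position. On chromosome 3 the nearest peak of both proteins lay 1204 kb away, at one place, from 18195847 to 18196047 for OsBZIP69 and from 18195833 to 18196033 for OsBZIP77. The nearest shorter-list peak of all was that of OsBZIP77 at 12424809 to 12425009 on chromosome 5, with a signal of 22, 24.9 kb from the position. Signal denotes the authors' value per peak, whose unit is not given and which was not matched between libraries.

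**Figure D2:**
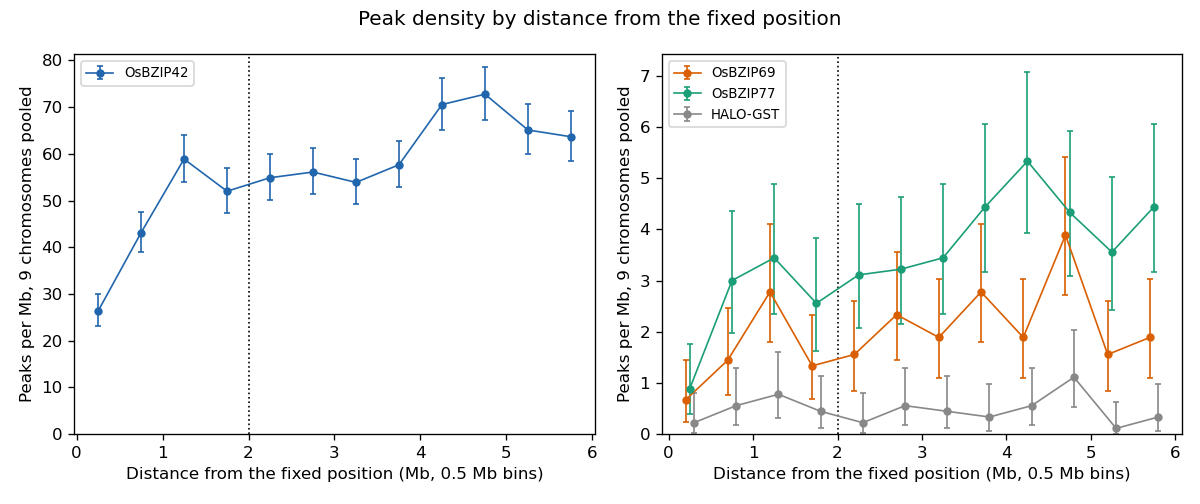
Peaks per Mb (vertical axes) in 0.5 Mb bins of distance from the fixed position (horizontal axes, Mb), summed over both sides and 9 chromosomes, for OsBZIP42 on the left and for OsBZIP69, OsBZIP77 and HALO-GST on the right; bars are exact 95% Poisson intervals and the dotted line marks the 2 Mb limit. OsBZIP42 climbs from 26.3 per Mb in the first bin to 58.9 in the third and stays between 52.0 and 57.7 out to 4 Mb.

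Set against the neighbouring sequence alone, from 2 to 6 Mb, the windows still had fewer OsBZIP42 and OsBZIP77 peaks. OsBZIP42 averaged 45.1 peaks per Mb in the windows and 61.8 in these flanks, lower on 9 of 9 chromosomes (exact sign-flip permutation test, adjusted p = 0.0195). OsBZIP77 averaged 2.47 in the windows and 3.99 in the flanks, also lower on 9 of 9 (exact sign-flip permutation test, adjusted p = 0.0195). For OsBZIP69 the values were 1.56 in the windows and 2.22 in the flanks, lower on 7 of 9, and the call was lost (exact sign-flip permutation test, adjusted p = 0.117). Over all alternatives the adjusted p ran from 0.00977 to 0.0781 for OsBZIP42, to 0.625 for OsBZIP69 and to 0.469 for OsBZIP77.

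Signal was slightly lower in the windows for OsBZIP42. Its median was 22.6 in the windows and 24.3 on the rest. Its 90th percentile was 61.2 in the windows and 75.6 on the rest, and its highest value 425 in the windows and 736 on the rest. On the log2 scale the chromosome medians averaged 4.49 ± 0.09 in the windows and 4.6 ± 0.04 on the rest (SD, n = 9). The mean difference was -0.11 ± 0.08, with lower windows on 8 of 9 chromosomes and a higher one on chromosome 11 (exact sign-flip permutation test, p = 0.00781, adjusted p = 0.0156). Against the flanks from 2 to 6 Mb this difference was -0.04 and no longer passed (exact sign-flip permutation test, adjusted p = 0.117). Of the OsBZIP42 window peaks, 6.84% (95% exact binomial interval 5.66 to 8.18) reached the signal of the top 10% of its whole list, 74.0, as did 10.4% (10 to 10.8) on the rest.

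For the other proteins the difference in signal did not pass the test. OsBZIP69 had a median signal of 19.9 in the windows and 26 on the rest, and OsBZIP77 of 19.0 in the windows and 22.0 on the rest. The chromosome medians of OsBZIP69 differed by -0.16 ± 0.63 on the log2 scale (SD, n = 8, chromosome 3 having too few peaks; exact sign-flip permutation test, adjusted p = 0.521). Without chromosome 7, where the window median of 57.0 exceeded the 24.5 of the rest, the difference was -0.36 over 7 chromosomes and passed (exact sign-flip permutation test, adjusted p = 0.0446). Over its alternatives the adjusted p for OsBZIP69 ran from 0.0446 to 0.914. OsBZIP77 differed by -0.17 ± 0.22 (SD, n = 9), lower on 5 chromosomes, higher on 2 and equal on 2 (exact sign-flip permutation test, adjusted p = 0.0893).

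The windows held 5.73% of the whole OsBZIP42 list, 5.06% of the OsBZIP69 list and 4.32% of the OsBZIP77 list. They held 3 of the 20 strongest OsBZIP69 peaks, 1 of the 20 strongest OsBZIP77 peaks and 1 of the 20 strongest OsBZIP42 peaks. Of the 50 strongest they held 4, 6 and 3, and of the 100 strongest 5, 7 and 3, in that order. The 3 OsBZIP42 peaks, ranked 15, 23 and 32, overlap one another on chromosome 5. Of OsBZIP69 window peaks 10.7% (4.03 to 21.9) were in the top 10% of its list, against 10% (8.08 to 12.3) on the rest. For OsBZIP77 these shares were 8.99% (3.96 to 16.9) in the windows and 9.76% (8.35 to 11.3) on the rest. In the lower 50% of its list stood 66.3% (55.5 to 76.0) of the OsBZIP77 window peaks and 51.3% (48.8 to 53.8) of those on the rest. For OsBZIP69 this was 62.5% (48.5 to 75.1) in the windows and 49.1% (45.7 to 52.5) on the rest.

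The strongest OsBZIP69 window site and the strongest OsBZIP77 window site were each in all 3 lists. The OsBZIP69 peak of rank 2 was at 12926088 to 12926288 on chromosome 7, 0.826 Mb from the position, and had a signal of 224. OsBZIP77 had a signal of 58.0 there, ranked 26, and OsBZIP42 one of 163, ranked 528. On the other side of the same position, 0.715 Mb away, the site from 11384541 to 11384741 was the OsBZIP77 peak of rank 3, with a signal of 84.0. OsBZIP69 had 141 there, ranked 12, and OsBZIP42 had 185, ranked 379, its strongest in that window.

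Chromosome 5 held the strongest OsBZIP42 sites of the windows, 1.31 Mb from the position. Signals of 425, 390 and 367, ranked 15, 23 and 32, belonged to the OsBZIP42 peaks 13708673 to 13708873, 13708790 to 13708990 and 13708622 to 13708822. They overlap, and the first lay near an OsBZIP69 peak of 59.1 and the second at the OsBZIP69 peak of rank 3, with 215. OsBZIP77 had 55.4 at the second. Still on chromosome 5, the OsBZIP42 peak from 11336832 to 11337032, with a signal of 234, had an OsBZIP77 peak of 32.0 at 1 bp and its nearest OsBZIP69 peak 126531 bp away.

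Other named sites were on chromosomes 6, 8 and 11. The site on chromosome 6 from 16615800 to 16616000 had signals of 112 for OsBZIP69, 52.0 for OsBZIP77 and 79.0 for OsBZIP42. OsBZIP69 thus exceeded OsBZIP42 there, in units that were not matched. The site on chromosome 11 from 11028430 to 11028630 had 71.0 for OsBZIP69, 59.0 for OsBZIP77 and 100 for OsBZIP42. On chromosome 8 the OsBZIP77 peak from 11453853 to 11454053, with a signal of 54.0, coincided with an OsBZIP69 peak of 47.0 and lay 1 bp from an OsBZIP42 peak of 171. On chromosome 6 OsBZIP42 reached 237 at 13886321 to 13886521, with an OsBZIP69 peak of only 13.0 and its nearest OsBZIP77 peak 269396 bp away.

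The strongest OsBZIP42 peak of each window had a signal between 136 on chromosome 11 and 425 on chromosome 5, with a median of 188. Of these 9 peaks, 5 were found with OsBZIP69 and 5 with OsBZIP77, of which 4 were found with both. Over all OsBZIP42 window peaks these shares were 3.39%, 5.55% and 2.28%. Among window peaks with a signal from 48.0 up, 17.5% were found with OsBZIP69 and 24.1% with OsBZIP77. The 9 peaks were picked for their high signal, and most shared peaks were strong OsBZIP42 peaks. The 3 in neither list were on chromosome 1 from 17349105 to 17349305, with 195, on chromosome 3 from 17448960 to 17449160, with 188, and on chromosome 11 from 10531329 to 10531529, with 136. The first was also the strongest window peak in neither shorter list, a choice made after its values were seen. At chromosome 2 from 12645999 to 12646199 OsBZIP42 had 203, OsBZIP69 25 and OsBZIP77 29.0. At chromosome 8 from 12358284 to 12358484 OsBZIP42 had 181, and the other proteins again had 25 and 29.0. At chromosome 12 from 10872749 to 10872949 OsBZIP42 had 186 and OsBZIP77 had 19.0.

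The OsBZIP42 peaks closest to the fixed positions ranged widely in signal. They lay between 1.12 kb away on chromosome 1 and 47.8 kb away on chromosome 8, with a median of 10.2 kb. Their signals were 31.8, 11.3, 49.0, 18.0, 12, 65.0, 21.4, 14.0 and 21.0 in the order of the chromosomes. The highest, on chromosome 7 from 12089923 to 12090123, stood in the top 12.2% of the OsBZIP42 list. None of the 9 had an OsBZIP69 or OsBZIP77 peak within 100 bp, where 93.3% of all OsBZIP42 window peaks had neither, and the closest was an OsBZIP77 peak 22967 bp away on chromosome 2.

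**Figure D3:**
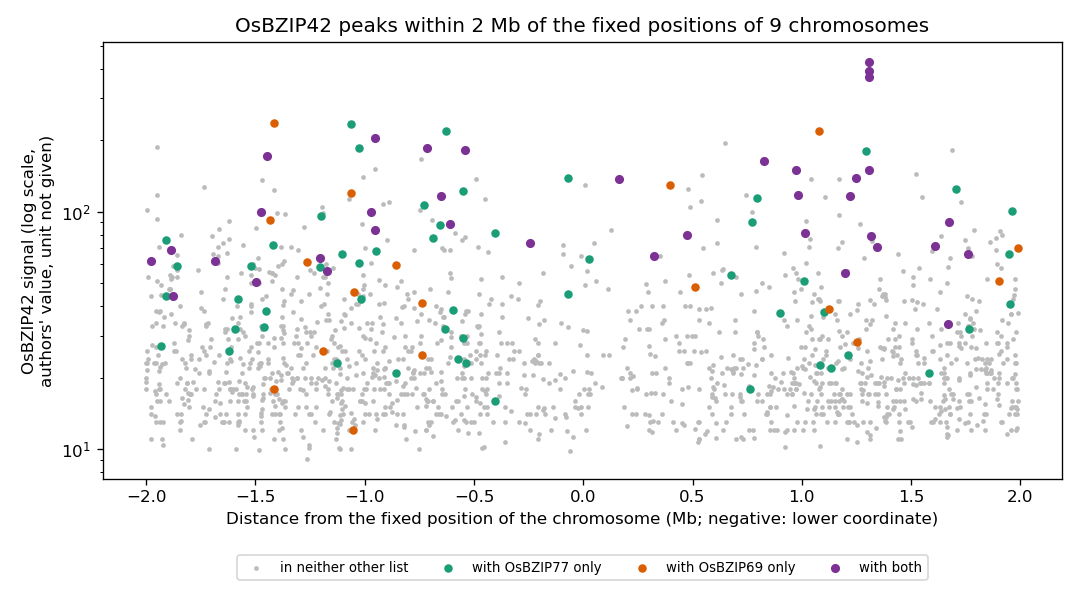
Signal of the 1623 OsBZIP42 window peaks (vertical axis, log scale, authors' value with no unit given) by distance from the fixed position of their chromosome (horizontal axis, Mb), with 9 chromosomes overlaid; grey points have no peak of another protein within 100 bp, coloured points have an OsBZIP77 peak, an OsBZIP69 peak or both. Points thin out toward 0, and the 3 highest, at 367 to 425, are the chromosome 5 sites.

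A smaller share of OsBZIP42 peaks was also an OsBZIP77 site in the windows. Over the 9 chromosomes together, 8.07% of 22494 OsBZIP42 peaks had an OsBZIP77 centre within 100 bp. In the windows 90 of 1623 did, or 5.55% (95% exact binomial interval 4.48 to 6.77), and on the rest 1725 of 20871, or 8.27% (7.89 to 8.65). By chromosome the window share ran from 2.52% on chromosome 3 to 9.55% on chromosome 5 with a median of 5.13%, and the rest from 7.06% to 9.97% with a median of 8.01%. The window was lower on 8 of 9 chromosomes and higher on chromosome 5, where the overlapping OsBZIP42 peaks named above each counted as shared. The mean difference was -2.85 ± 1.70 percentage points (SD, n = 9; exact sign-flip permutation test, p = 0.00781, adjusted p = 0.0156). By the same exact sign-flip permutation test the call was lost with windows of 1 Mb to either side (adjusted p = 0.148). In the upper 50% by q-value it was lost as well (exact sign-flip permutation test, adjusted p = 0.465). It was also lost against flanks from 2 to 6 Mb and after reweighting by signal, both given below. Nearly all OsBZIP77 peaks lay at OsBZIP42 peaks, so this share is not independent of the 2 densities.

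Sharing with OsBZIP69 differed in the same direction without passing the test. Over the 9 chromosomes 4.44% of the OsBZIP42 peaks had an OsBZIP69 centre within 100 bp. In the windows 55 did, or 3.39% (2.56 to 4.39), and on the rest 943, or 4.52% (4.24 to 4.81). The window share ran from 1.26% on chromosome 3 to 7.64% on chromosome 5, and the rest from 3.58% to 6.22%. The mean difference was -1.29 ± 1.85 percentage points (SD, n = 9; exact sign-flip permutation test, p = 0.0742, adjusted p = 0.0928). Chromosome 5, where 12 of 157 window peaks were shared, was the only one with a higher window. These 12 include the overlapping OsBZIP42 peaks named above, 1.31 Mb from the position, each counted as shared. Without chromosome 5 the difference was -1.76 and passed (exact sign-flip permutation test, n = 8 chromosomes, adjusted p = 0.0130). Over its alternatives the adjusted p ran from 0.0130 to 0.521.

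With either protein the share was 6.65% in the windows (108 peaks, 5.49 to 7.98) and 9.25% on the rest (1930 peaks, 8.86 to 9.65), against 9.06% over the 9 chromosomes. The mean difference over chromosomes was -2.81 ± 2.17 percentage points, lower on 8 of 9 (SD, n = 9; exact sign-flip permutation test, p = 0.0117, adjusted p = 0.0195). Over its alternatives of the same exact permutation test the adjusted p ran from 0.0130 to 0.223. The call was lost with windows of 1 Mb to either side (lower on 6 of 9, exact sign-flip permutation test, adjusted p = 0.195). It was also lost in the upper 50% by q-value (5 of 9, exact sign-flip permutation test, adjusted p = 0.223) and after the reweighting by signal. Sites of all 3 proteins made up 2.28% of the OsBZIP42 window peaks (37 peaks, 1.61 to 3.13) and 3.54% of those on the rest (738 peaks, 3.29 to 3.80), against 3.45% over the 9 chromosomes. On chromosome 1 this held for 0 of 193 OsBZIP42 window peaks, with an exact upper limit of 1.89% (1.55% by a floor of 3 counts).

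**Figure D4:**
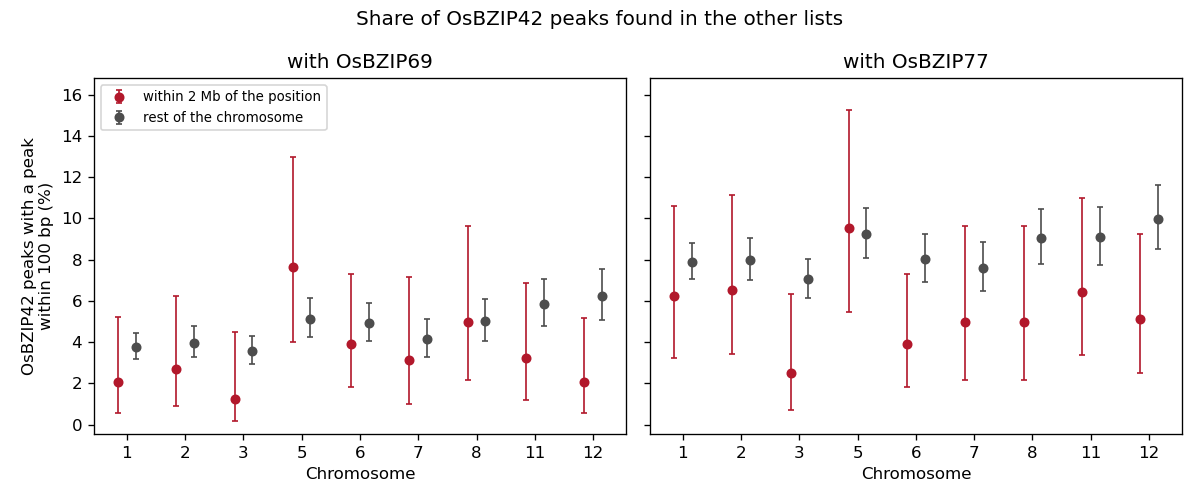
Share of OsBZIP42 peaks with a peak of OsBZIP69 (left) or OsBZIP77 (right) within 100 bp (vertical axis, percent) on each of 9 chromosomes (horizontal axes); red points are windows, grey points the rest of the chromosome, and bars are exact 95% binomial intervals. The red point lies above the grey one on chromosome 5 alone in both panels, at 7.64% with OsBZIP69 and 9.55% with OsBZIP77.

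The shares were then compared within quintiles of OsBZIP42 signal, since most shared peaks were strong OsBZIP42 peaks. Signal was not matched inside a quintile, and the highest quintile spans 48.0 to 736. In the highest quintile of OsBZIP42 signal, from 48.0 up, OsBZIP69 was found at 45 of 257 window peaks, or 17.5% (13.1 to 22.7), and at 17.4% (16.3 to 18.6) of peaks on the rest. OsBZIP77 was found at 62 of these 257, or 24.1% (19.0 to 29.8), and at 29.6% (28.2 to 30.9) on the rest. In the lowest quintile, up to 15.9, OsBZIP69 was found at 0.291% of window peaks (0.00736 to 1.61) and 0.395% (0.226 to 0.641) on the rest. OsBZIP77 was found there at 0 of 344 window peaks and at 0.741% (0.501 to 1.06) on the rest. The exact upper limit of this 0 is 1.07%, and a floor of 3 counts gives 0.872%. The intervals of window and rest overlapped in the highest quintile for both proteins.

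With the rest of each chromosome reweighted to the window by signal quintile, the calls for OsBZIP77 and for either protein were lost, and OsBZIP69 again did not pass. The share with OsBZIP77 averaged 5.59% in the windows and 6.97% on the reweighted rest, lower on 7 of 9 chromosomes (exact sign-flip permutation test, adjusted p = 0.0703). With OsBZIP69 it was 3.45% in the windows and 3.88% on the reweighted rest (exact sign-flip permutation test, adjusted p = 0.521). With either protein it was 6.67% in the windows and 7.89% on the reweighted rest (exact sign-flip permutation test, adjusted p = 0.140). Set against the flanks from 2 to 6 Mb, the share with OsBZIP77 was 5.59% in the windows and 6.87% in the flanks (exact sign-flip permutation test, adjusted p = 0.0781). Over all its alternatives that adjusted p ran from 0.0130 to 0.465.

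**Figure D5:**
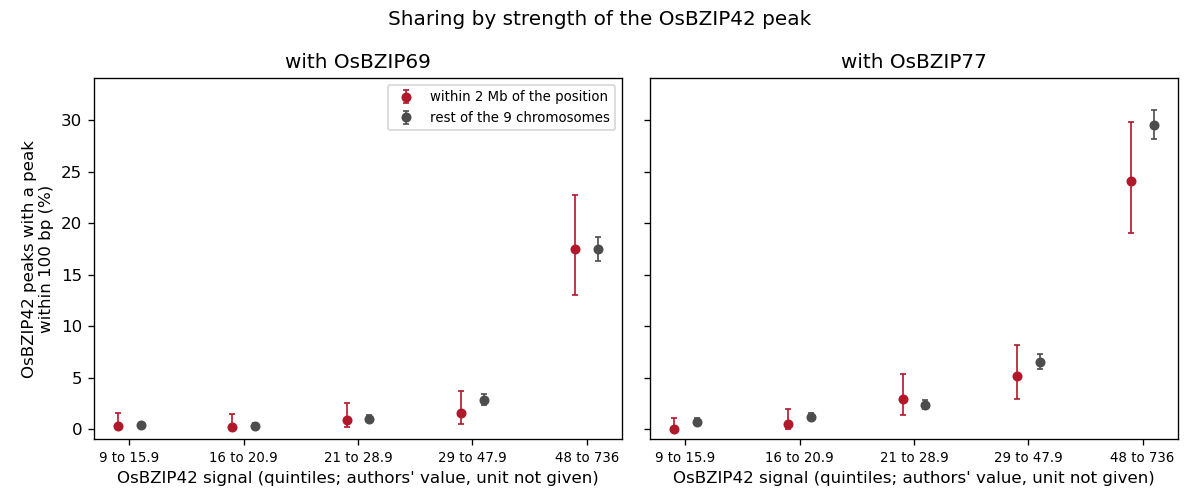
Share of OsBZIP42 peaks with OsBZIP69 (left) or OsBZIP77 (right) within 100 bp (vertical axis, percent) by quintile of OsBZIP42 signal over the 9 chromosomes (horizontal axes, authors' value with no unit given); red points are windows, grey points the rest, and bars are exact 95% binomial intervals. In the highest quintile the window and rest values were 17.5% and 17.4% for OsBZIP69, and 24.1% and 29.6% for OsBZIP77.

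Read from the shorter lists, nearly all window sites were still OsBZIP42 sites. Of the OsBZIP69 window peaks 51 of 56 had an OsBZIP42 centre within 100 bp, or 91.1% (80.4 to 97.0), against 98.1% (96.9 to 98.9) on the rest. Of the OsBZIP77 window peaks 84 of 89 did, or 94.4% (87.4 to 98.2), against 96.7% (95.7 to 97.5). OsBZIP69 and OsBZIP77 coincided at 34 sites, or 60.7% (46.8 to 73.5) of the OsBZIP69 and 38.2% (28.1 to 49.1) of the OsBZIP77 window peaks. On the rest these shares were 76.0% (72.9 to 78.8) and 39.9% (37.5 to 42.3). All of these window intervals overlap those of the rest. The OsBZIP69 window peaks comprised 34 in all 3 lists, 17 with OsBZIP42 alone and 5 with neither. Centres matched closely, with a median offset of 1 bp from OsBZIP42 for both proteins in the windows and on the rest.

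The window peaks without an OsBZIP42 peak were few and mostly weak. The 5 of OsBZIP69 lay on chromosome 12 from 13388529 to 13388729 (signal 36.0) and from 13401968 to 13402168 (20.8), chromosome 1 from 18684189 to 18684389 (23.7), chromosome 11 from 11220794 to 11220994 (13.0) and chromosome 8 from 13389332 to 13389532 (10). The first was 2930 bp and the chromosome 1 peak 442 bp from a HALO-GST peak. The 5 of OsBZIP77 had signals between 11 and 21.2, and the highest, on chromosome 12 from 13342261 to 13342461, lay 49198 bp from a HALO-GST peak.

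Few HALO-GST peaks lay at bZIP sites, in the windows or elsewhere. The bZIP lists were called against a negative control, which can remove such sites beforehand. The low overlap is therefore no independent result. Within 100 bp of a bZIP centre were 0 of 18 in the windows and 4 of 136 on the rest, and within 1000 bp 2 of 18 in the windows and 31 of 136 on the rest. No bZIP window peak had a HALO-GST centre within 100 bp. The 0 of 1623 OsBZIP42 peaks have an exact upper limit of 0.227% (0.185% by a floor of 3 counts). The strongest HALO-GST window peak, with a signal of 19, was at 18686557 to 18686757 on chromosome 1, near the outer limit of the window, 1.99 Mb from the position. On chromosome 11 a HALO-GST peak with a signal of 12, from 12164542 to 12164742, fell inside the 595 kb interval without OsBZIP42 peaks. The next strongest were on chromosome 12 from 13391459 to 13391659 (11), chromosome 2 from 14009538 to 14009738 (9) and chromosome 1 from 18683747 to 18683947 (7).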

How the data were processed

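Genomic DNA from Nipponbare leaves was incubated with HALO-tagged OsBZIP42, OsBZIP69, OsBZIP77 or HALO-GST, 1 library each, per the labels' protocols. The submitters' processing notes name Bowtie2 2.2.8 for alignment. Names of the deposited lists record GEM peak calls, made against a negative control for the 3 bZIP lists and without one for HALO-GST. A word in these names is read as multiply mapped reads left out. No source used here names the genome build, so peaks were assigned to no gene and no sequence was read. The authors' deposited signal value per peak has no stated unit or scaling between libraries. The deposited −log10 q-values start at 2.00. Read depth is unknown.

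Peak centres (1-based) were compared with 9 fixed positions, using Python 3.11.15 and scipy 1.17.1. Lengths end at the furthest peak of any list, and peaks per Mb are not corrected for repeats or assembly gaps, whose part in the densities was not tested. An OsBZIP42 peak was shared when another centre lay within 100 bp. Window minus rest was tested over chromosomes by exact sign-flip permutation, with Benjamini-Hochberg adjustment over 10 comparisons. Medians needed 3 peaks. Named sites were the 5 strongest window peaks per bZIP list, the strongest and nearest OsBZIP42 peak and longest interval per chromosome, the 5 best common sites, and up to 5 OsBZIP69 or OsBZIP77 peaks without OsBZIP42 and 5 HALO-GST peaks. Members and lists were chosen with earlier results of these data known. The code was tested on simulated data.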

Additional observations from a re-analysis of the deposited data

How the results depend on the processing

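Of 179 alternatives for 10 comparisons, 154 kept direction and side of the threshold. Given as window minus rest, the others follow, and their cause was not tested. Against flanks from 2 to 6 Mb, OsBZIP69 density (-0.667 per Mb), OsBZIP42 log2 signal (-0.042) and the share with OsBZIP77 (-1.28 points) no longer passed, and HALO-GST density turned to 0.042 per Mb. Windows of 1 Mb to either side gave -2.40 points for OsBZIP77 and -2.53 for either protein, neither passing. They turned OsBZIP69 log2 signal to 0.53 over 3 chromosomes. Windows of 3 Mb to either side gave -1.31 points for OsBZIP69, now passing. The upper 50% by q-value gave OsBZIP42 log2 signal of -0.11, -1.21 points for OsBZIP77 and -2.51 for either, none passing, and turned OsBZIP69 log2 signal to 0.37 and HALO-GST density to 0.12. Positions 0.5 Mb lower left OsBZIP42 log2 signal at -0.10, not passing. Reweighting by signal gave -1.38 points for OsBZIP77 and -1.22 for either, not passing. The inner 1 Mb against the shell beyond it, added after seeing the data, gave -20.7, -1 and -1.06 peaks per Mb for OsBZIP42, OsBZIP69 and OsBZIP77, not passing. Leaving out each chromosome, the density difference stayed between -37.8 and -33.1 for OsBZIP42, -1.84 and -1.63 for OsBZIP69, and -3.88 and -3.60 for OsBZIP77. That of HALO-GST ran from -0.143 to 0.046. Log2 signal differed by -0.13 to -0.10 for OsBZIP42, -0.36 to -0.083 for OsBZIP69 and -0.20 to -0.13 for OsBZIP77. Shares differed by -1.76 to -0.924 points for OsBZIP69, -3.24 to -2.60 for OsBZIP77 and -3.31 to -2.48 for either. No paired analysis was possible because no protein had more than 1 library, so that no replicates could be paired; each test pairs window and rest within chromosomes. Unknown depth limits any statement on absent peaks.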

Other observations

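OsBZIP42 peaks of the windows were further from one another, which is largely their lower density expressed as spacing. The same holds for the median distances of OsBZIP69 and OsBZIP77. The median distance to the nearest other OsBZIP42 centre was 3.82 kb in the windows and 2.25 kb on the rest of the 9 chromosomes. Of the window peaks 169, or 10.4% (95% exact binomial interval 8.97 to 12), had another OsBZIP42 centre within 200 bp, as did 13.5% (13.0 to 13.9) on the rest. For OsBZIP69 the median distance was 199 kb in the windows and 87.3 kb on the rest, and for OsBZIP77 105 kb and 44.1 kb in the same order.

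Peaks were unevenly placed on the sides of some positions. Over all windows 873 OsBZIP42 peaks lay on the side of lower coordinates and 750 on the side of higher coordinates. On chromosome 11 these counts were 132 and 54, and on chromosome 8 they were 102 and 58. On chromosome 6 they were 108 and 121. On chromosomes 8 and 11 the sparsest 4 Mb stretch was centred 1 and 1.2 Mb above the position, on the side with fewer peaks. It was also on the side with fewer peaks on chromosomes 5, 6 and 7. On chromosomes 1, 3 and 12 it was on the side with more peaks. No test was made of these differences.

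At sites shared with OsBZIP42, the log2 ratio of OsBZIP69 to OsBZIP42 signal had a median of -1.64 in the windows (SD 1.05 over 51 sites) and -1.66 on the rest (SD 1.07 over 821). For OsBZIP77 the median ratio was -1.54 in the windows (SD 0.85 over 84 sites) and -1.72 on the rest (SD 0.91 over 1545). The signal of OsBZIP69 exceeded that of OsBZIP42 at 4 of 51 sites in the windows and 41 of 821 on the rest. That of OsBZIP77 did so at 0 of 84 in the windows and 23 of 1545 on the rest.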
